A study of Mus musculus with 12 samples.

Results

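The genes described here make and store fat in the liver: 34 genes of lipogenesis, fatty acid elongation and desaturation, and triglyceride synthesis, storage and export. They were chosen by symbol from a fixed list, and all 34 were found, each with 1 entry, among the 38087 genes of the count table. By their known roles they fall into 10 genes of fatty acid synthesis and its regulators, 10 of elongation and desaturation, 8 of glycerolipid assembly and 6 of lipid droplets, lipases and lipoprotein export. The last class also holds Vldlr, a receptor of lipoprotein uptake. Their levels were measured by total RNA sequencing in livers of germ-free male C57BL/6j mice aged 13 to 16 weeks. One group of 6 mice was injected under the skin with human growth hormone (GH) made by recombinant means, at 50 µg per mouse, and the other group of 6 with phosphate-buffered saline (PBS). For 5 days, both groups were injected at ZT 2 and again at ZT 14, and all livers were taken at ZT 2, where ZT counts the hours after lights on. Both groups lacked a gut microbiota, so no comparison with colonised mice is possible here. The labels leave unstated whether the dose refers to each injection or to each day.

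In the liver, carbon from sugar leaves the mitochondrion as citrate, is turned into acetyl-CoA and malonyl-CoA in the cytosol, and is built into palmitate by fatty acid synthase. Elongases and desaturases of the endoplasmic reticulum lengthen palmitate and dietary fatty acids and add double bonds, and acyltransferases join them to glycerol to give triglyceride, which is stored in droplets or secreted in very low density lipoprotein. The transcription factors SREBP1 and ChREBP drive much of this pathway after feeding, through insulin and sugar, and GH is known to oppose insulin and to act on liver lipid metabolism through the kinase JAK and the factor STAT.

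Library totals ran from 19523104 to 23278931 counts, and the 34 genes together took 1.44 ± 0.302% (SD, n = 6) of the counts in PBS libraries and 1.14 ± 0.416% in libraries labelled GH. Hepatocyte markers summed to 82849 to 101922 counts-per-million (CPM, after TMM scaling) in PBS libraries and 66737 to 90675 CPM in those labelled GH. Most of that sum was Alb, at 74870 ± 6339 CPM in PBS and 62486 ± 6754 CPM in libraries labelled GH. Of the 6 hepatocyte markers, 5 had a log2 fold change below 0 and 1, Apoa1, above 0, and 0 passed the threshold. The sums of Kupffer, endothelial, stellate, cholangiocyte and lymphocyte markers overlapped between the groups, with 1 marker, the stellate gene Dcn, lower past the threshold in libraries labelled GH, and the part of cell makeup in the lipid genes was not tested. In contrast, adipocyte markers summed to at most 0.390 CPM, with 4 of 5 at 12 counts or fewer over all libraries. Genes known to be induced by GH signalling in liver went against the label. Socs2 fell from 13.8 ± 7.51 to 1.32 ± 0.284 CPM (edgeR adjusted p = 0.00084), Cish from 7.53 ± 7.56 to 0.610 ± 0.337 CPM (0.0201) and Igf1 from 493 ± 51.6 to 310 ± 60.6 CPM (0.00381), each with no overlap between groups. The groups are therefore called by their labels, and every direction below is that of the libraries labelled GH against those labelled PBS. Nothing in the labels says whether the libraries within a group had other steps in common, so the tests measure the spread between individual samples, part of which may be technical.

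None of the 33 genes that could be tested passed the threshold of 0.05 on the adjusted p of edgeR's quasi-likelihood test, where 4.79% of the 14235 genes tested passed, 2.27% higher and 2.52% lower in libraries labelled GH. At an unadjusted p under 0.05 there were 5 of 33 (Elovl3 higher, and Elovl5, Fads2, Dgat2 and Vldlr lower), or 15.2% beside 19.0% of all genes. Of all genes, 9.15% were higher and 9.83% lower at that level. DESeq2 called 2 of them (Fads2 and Vldlr; 7.34% of all genes) and limma-voom called 0 (4.53% of all genes). No gene of the 33 had values without overlap between the groups, which 3.18% of all genes did. The fitted log2 fold change was below 0 in 25 of the 33, with a median of -0.18, while 49.9% of all genes were below 0 and their median was 0.00. With the replicate number as a block, 1 of the 33 passed (Vldlr), beside 2.75% of all genes. In bulk tissue, fewer cells of a type and less RNA per cell cannot be told apart.

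**Figure D1:**
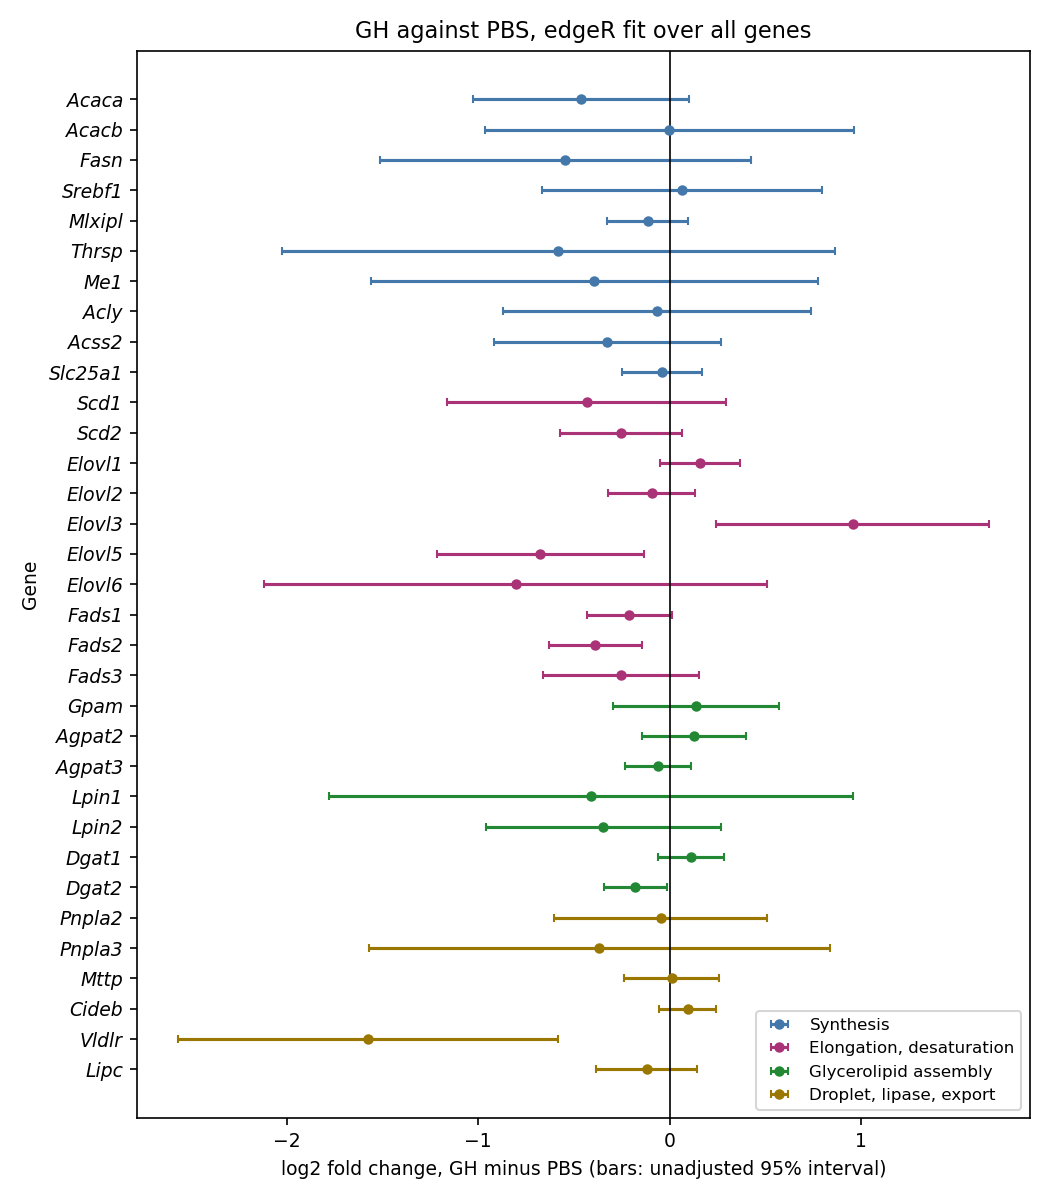
Log2 fold changes (libraries labelled GH minus PBS, 6 against 6) of the 33 tested genes with 95% intervals that are not adjusted for multiple testing, coloured by role. Elovl3 at 0.95 lies highest and Vldlr at -1.58 lowest. The intervals of Elovl3, Elovl5, Fads2, Dgat2 and Vldlr leave out 0, and those of the other genes include it.

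In fatty acid synthesis, 9 of 10 genes had a log2 fold change below 0, with a median of -0.22 and a range of -0.58 to 0.06, and none had an unadjusted p under 0.05. Fasn, fatty acid synthase (chromosome 11, 120805846 to 120824547 in GRCm38), measured 290, 251, 517, 740, 452 and 528 CPM in PBS replicates 1 to 6. In replicates 1 to 6 labelled GH it measured 305, 339, 689, 293, 180 and 95.1 CPM. The highest PBS and GH values thus differ little and the lowest differ more, and the log2 fold change was -0.55 ± 0.44 (SE, 95% interval -1.52 to 0.42, adjusted p = 0.558). Srebf1, which encodes SREBP1 (chromosome 11, 60199089 to 60222581, with 66 exonic bases shared on the same strand with Mir6922), measured 103, 80.9, 149, 176, 313 and 201 CPM in the PBS libraries. In those labelled GH it measured 162, 221, 271, 165, 110 and 139 CPM. The range of the libraries labelled GH lay inside that of the PBS libraries, and the log2 fold change was 0.06 ± 0.33 (adjusted p = 0.946).

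The other synthesis genes overlapped between the groups as well. Mlxipl, which encodes ChREBP, was at 140 ± 16.8 CPM in PBS and 129 ± 19.5 CPM in GH libraries (log2 fold change -0.12 ± 0.10, adjusted p = 0.580), and the mitochondrial citrate carrier Slc25a1 was at 170 ± 8.58 and 166 ± 27.5 CPM (-0.04, 95% interval -0.25 to 0.17). Acly, which splits the exported citrate into acetyl-CoA, had means of 556 ± 215 and 532 ± 281 CPM, and Acss2, which makes acetyl-CoA from acetate, 471 ± 97.5 and 375 ± 149 CPM. The means of these 4 genes differed between the groups by less than 1 SD of the libraries labelled GH. Acaca, the cytosolic acetyl-CoA carboxylase, was at 158 ± 58.9 and 115 ± 33.5 CPM (-0.46 ± 0.26, adjusted p = 0.371), and Acacb, the carboxylase at the mitochondrial surface, at 64.0 ± 18.0 and 63.9 ± 38.5 CPM. Me1, malic enzyme, which supplies NADPH, was at 129 ± 60.8 and 98.2 ± 65.8 CPM (-0.39 ± 0.53, adjusted p = 0.753).

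Thrsp, a thyroid hormone responsive lipogenic gene, reached 448 CPM in PBS replicate 4, with 40.4 to 173 CPM in the other PBS libraries and 25.8 to 261 CPM in those labelled GH. Its log2 fold change of -0.58 ± 0.65 (adjusted p = 0.693) was -1.05 without GH replicate 3 and 0.03 without PBS replicate 4. The median of the synthesis genes was -0.43 without GH replicate 3 and -0.08 without PBS replicate 4.

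**Figure D2:**
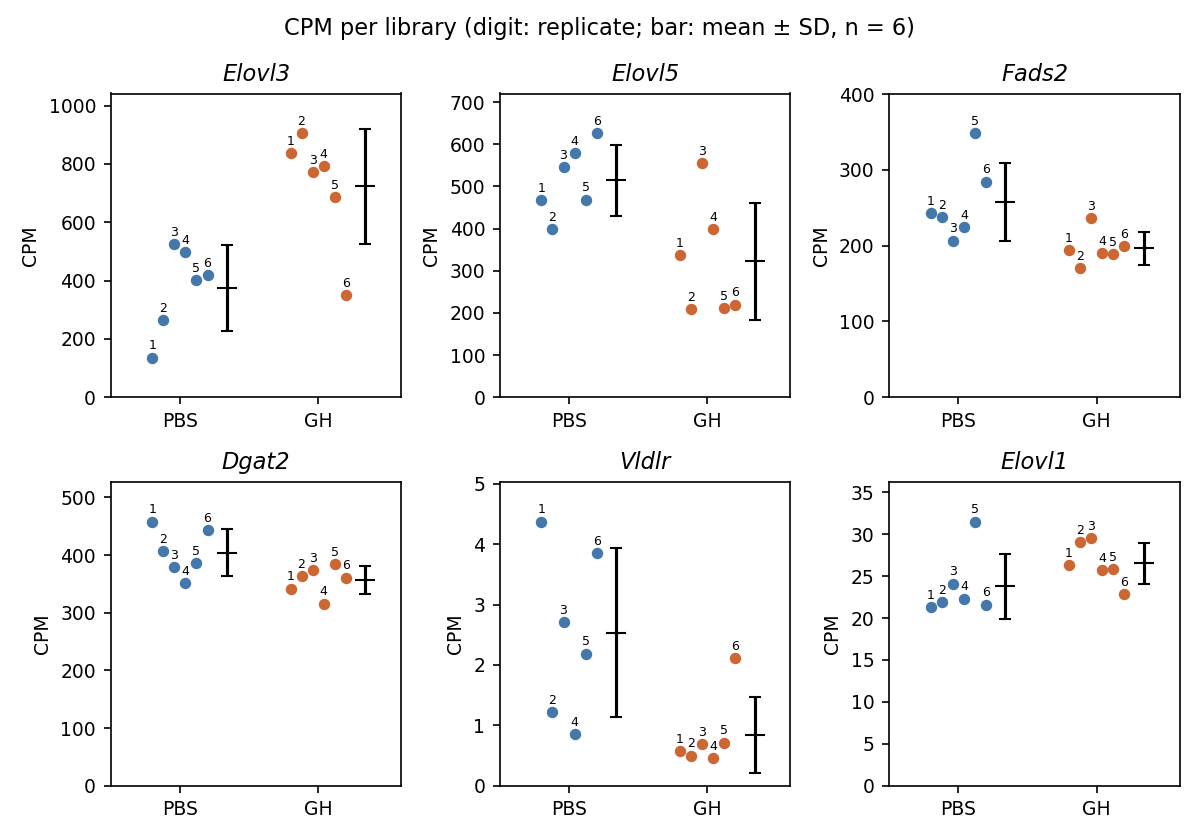
TMM-scaled CPM per library for 6 genes of elongation, desaturation, glycerolipid assembly and lipoprotein uptake, with points numbered by replicate and bars for the mean ± SD (n = 6). Elovl3 lies mostly higher in libraries labelled GH and Vldlr and Fads2 mostly lower, and in each panel at least 1 library of one group lies within the range of the other.

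In elongation and desaturation, 8 of 10 genes had a log2 fold change below 0, beside 49.9% of all genes, and 3 of 10 had an unadjusted p under 0.05, beside 19.0% of all genes. The median was -0.26 and the range, -0.81 to 0.95, held both directions. Elovl3, an elongase of very long saturated and monounsaturated fatty acids (chromosome 19, 46131897 to 46135694), measured 136, 265, 524, 498, 401 and 418 CPM in the PBS libraries. It measured 838, 906, 773, 793, 685 and 350 CPM in those labelled GH. Of the libraries labelled GH, 5 of 6 lay above every PBS library, and GH replicate 6 lay inside the PBS range. The log2 fold change was 0.95 ± 0.32 (95% interval 0.24 to 1.67, adjusted p = 0.136; over the alternatives tried, 0.000433 to 0.267), and without GH replicate 6 it was 1.10 (adjusted p = 0.0643).

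Elovl5, an elongase of polyunsaturated fatty acids (chromosome 9, 77917364 to 77984519), measured 467, 399, 546, 579, 469 and 627 CPM in PBS libraries and 337, 210, 556, 399, 211 and 220 CPM in those labelled GH. Only GH replicates 3 and 4 reached the PBS range, and the log2 fold change was -0.68 ± 0.25 (adjusted p = 0.161). Without GH replicate 3 it was -0.90 and passed the threshold (adjusted p = 0.0230; 0.0230 to 0.316 over the alternatives), and 3.42% of all genes passed there. Elovl2, the elongase that acts on the longest polyunsaturated chains, was at 400 ± 52.3 and 375 ± 57.7 CPM (-0.09 ± 0.11, adjusted p = 0.693). Elovl1, an elongase of very long saturated chains, was at 23.8 ± 3.91 CPM, with 21.3, 21.9, 24.1, 22.3, 31.5 and 21.6 CPM in the PBS libraries, and at 26.5 ± 2.46 CPM, with 26.3, 29.0, 29.6, 25.7, 25.8 and 22.9 CPM, in those labelled GH. PBS replicate 5 lay above every library labelled GH, and the log2 fold change was 0.16 ± 0.10 (adjusted p = 0.417). Leaving out PBS replicate 5 and GH replicate 6 together, it was 0.29 (adjusted p = 0.0205), where 7.18% of all genes passed. That pair was chosen after seeing the data and holds the highest PBS and the lowest GH library for Elovl1. The adjusted p was 0.0597 without PBS replicate 5 alone and 0.292 without GH replicate 6 alone.

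Elovl6, which lengthens palmitate to stearate, had among the widest spreads, from 11.9 CPM in GH replicate 6 to 214 CPM in PBS replicate 4. Its means were 90.9 ± 67.6 and 52.0 ± 35.2 CPM and its log2 fold change -0.81 ± 0.59 (adjusted p = 0.519). The most abundant gene of the list, Scd1, the main stearoyl-CoA desaturase of liver (chromosome 19, 44394455 to 44407879), measured 5628, 6356, 7254, 9652, 5034 and 7917 CPM in PBS libraries. In those labelled GH it measured 3947, 2312, 10122, 6598, 4855 and 3128 CPM. Both the highest and the lowest library were thus labelled GH, and the log2 fold change was -0.43 ± 0.33 (95% interval -1.16 to 0.30, adjusted p = 0.533). Scd2, a desaturase of brain and developing tissue in the mouse with 61 exonic bases shared on the same strand with Mir5114, was at 10.3 ± 3.10 and 8.64 ± 0.655 CPM (-0.26 ± 0.15, adjusted p = 0.388).

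The front-end desaturases Fads1 and Fads2, which introduce double bonds into polyunsaturated fatty acids, lie with their relative Fads3 on chromosome 19 between 10041569 and 10196877. Fads2 measured 243, 238, 207, 224, 349 and 285 CPM in PBS libraries and 194, 170, 237, 191, 188 and 199 CPM in those labelled GH. All but GH replicate 3 lay below the lowest PBS library, and the log2 fold change was -0.39 ± 0.11 (95% interval -0.63 to -0.15), the smallest adjusted p of the list at 0.0666 (0.0260 to 0.186 over the alternatives). Fads1 measured 364, 324, 334, 285, 483 and 362 CPM in PBS libraries and 326, 290, 326, 335, 275 and 306 CPM in those labelled GH. Its groups overlap more, and the log2 fold change was -0.21 ± 0.10 (adjusted p = 0.290). Fads3 was near 2 CPM, at 2.17 ± 0.413 and 1.82 ± 0.447 (-0.26 ± 0.19, adjusted p = 0.522).

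Per kilobase of exonic sequence, the Scd1 level in PBS livers, 1426 ± 343 CPM per kb, stood above that of every other gene of the list. The levels of Elovl3 (189 ± 74.9), Elovl5 (146 ± 23.9), Dgat2 (131 ± 13.2), Acly (105 ± 40.7) and Elovl2 (101 ± 13.2 CPM per kb) came next, and neighbours in that order differed by less than the larger of their 2 SDs. Of related genes, the Scd2 level was 1.89, Acaca 9.26, Acacb 6.64 and Dgat1 6.00 CPM per kb, and Mogat1 was lowest at 0.127 CPM per kb.

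The genes of glycerolipid assembly had a median log2 fold change of -0.06 (range -0.41 to 0.14, 4 of 7 tested genes below 0). Gpam, which attaches the first fatty acid to glycerol phosphate, was at 290 ± 50.0 and 319 ± 106 CPM (0.14 ± 0.20, adjusted p = 0.777). The acyltransferases of the next step were at 180 ± 38.9 and 197 ± 19.4 CPM for Agpat2 and at 157 ± 18.9 and 150 ± 10.5 CPM for Agpat3 (log2 fold changes 0.13 and -0.06). The phosphatidate phosphatases differed in spread. Lpin1 ran from 49.5 CPM in PBS replicate 5 to 943 CPM in PBS replicate 4, so that both extremes were PBS libraries, and its log2 fold change was -0.41 ± 0.62 (adjusted p = 0.781), while Lpin2 was at 449 ± 163 and 353 ± 95.7 CPM (-0.35 ± 0.28, adjusted p = 0.560).

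Dgat2, the diacylglycerol acyltransferase at the last step (chromosome 7, 99153658 to 99182719), measured 458, 407, 380, 351, 386 and 444 CPM in PBS libraries. It measured 342, 364, 374, 316, 385 and 361 CPM in those labelled GH. The lower PBS libraries lay among those labelled GH, and the log2 fold change was small, -0.18 ± 0.08 (95% interval -0.34 to -0.02, adjusted p = 0.217; 0.0798 to 0.374 over the alternatives). Dgat1, the unrelated enzyme of the same step, was at 18.3 ± 1.23 and 19.8 ± 2.20 CPM (0.11 ± 0.08, adjusted p = 0.503). Mogat1, a monoacylglycerol acyltransferase, had 2 to 9 counts per library (0.199 ± 0.0886 and 0.178 ± 0.135 CPM) and was too low to be tested.

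Among droplet, lipase and export genes the median log2 fold change was -0.08, with 4 of 6 below 0. Vldlr, the very low density lipoprotein receptor (chromosome 19, 27216484 to 27254231), was scarce, at 10 to 101 counts per library. It measured 4.37, 1.22, 2.71, 0.853, 2.18 and 3.85 CPM in PBS libraries and 0.576, 0.499, 0.682, 0.456, 0.710 and 2.11 CPM in those labelled GH. All but GH replicate 6 lay below the lowest PBS library, and the log2 fold change was -1.58 ± 0.46 (95% interval -2.57 to -0.59, adjusted p = 0.0729). It was -2.11 without GH replicate 6 (adjusted p = 0.00691, where 5.56% of all genes passed) and passed in DESeq2 (0.00553), with a range of 0.00553 to 0.193 over the alternatives.

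The remaining genes of this class did not pass the test. Pnpla2, adipose triglyceride lipase, was at 24.2 ± 8.11 and 23.4 ± 7.77 CPM (log2 fold change -0.05), and Pnpla3, a related droplet protein with 105 exonic bases shared on the same strand with Gm49513, was at 1.21 ± 0.509 and 0.940 ± 1.06 CPM (-0.37). The lipoprotein assembly genes Mttp, which loads triglyceride onto apolipoprotein B, and Cideb, a droplet protein of lipoprotein lipidation, were at 359 ± 58.4 and 361 ± 50.2 CPM and at 115 ± 6.04 and 123 ± 11.4 CPM. On the opposite strand, Cideb shares 1136 of its 1488 exonic bases with Nop9 and Mttp 457 with Trmt10a, so with the strand setting unknown their reads may be mixed. The hepatic lipase gene, Lipc, was at 146 ± 25.0 and 134 ± 20.1 CPM. Adjusted p-values of these 5 ran from 0.513 to 0.976.

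**Figure D3:**
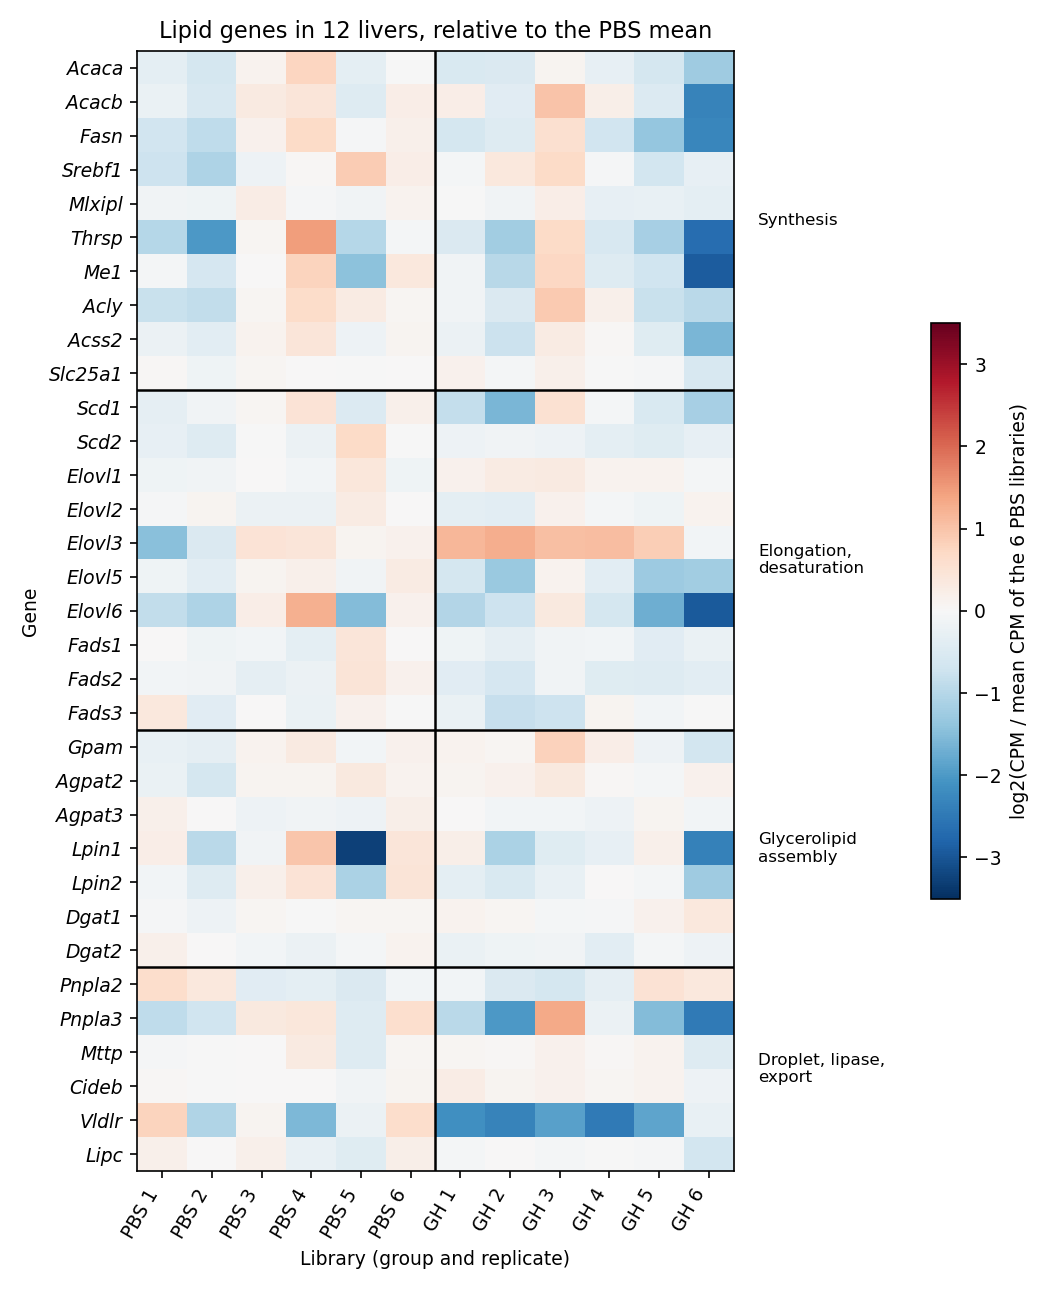
CPM of each of the 33 tested genes in each of the 12 libraries, as the log2 ratio to the gene's mean over the 6 PBS libraries, grouped by role. GH replicate 6 is the lowest library for 16 genes, PBS replicate 4 the highest for 9, and PBS replicate 5 the highest for 7.

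Libraries of one group differed more in these genes than in the typical gene. The median within-group SD on the log2 scale was 0.45 over the 33 genes, 0.62 for synthesis, 0.30 for elongation and desaturation, 0.26 for glycerolipid assembly and 0.36 for droplet, lipase and export genes, beside 0.21 over all genes tested. Lpin1 spread more than 99.8% of all genes, with a 19.1-fold range between libraries, and Thrsp more than 99.6%, with a 17.4-fold range, while Cideb ranged over 1.33-fold and Agpat3 over 1.30-fold. GH replicate 6 was the lowest library for 16 of 33 genes, 9 of them among the 10 synthesis genes, beside 10.7% of all genes. This library also stood apart over the tested genes as a whole. Chi-square per degree of freedom against counting noise was 54.3 to 77.5 for GH pairs with replicate 6, and 9.03 to 25.4 for other GH pairs. In PBS it was 44.6 to 69.7 for pairs with replicate 5, and 15.4 to 62.9 for other pairs. GH replicate 6 also had the lowest share of Alb counts, 4.95%. PBS replicate 4 was the highest for 9, and PBS replicate 5 the highest for 7, of which 5 were elongation and desaturation genes, beside 10.2% and 14.0% of all genes.

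Some synthesis and assembly genes ordered the libraries in a shared way that crossed the groups. Dbp, a circadian transcription factor gene whose mRNA cycles strongly over the day in mouse liver, measured 32.2 and 22.3 CPM in PBS replicates 1 and 2, 21.0 and 8.61 CPM in GH replicates 5 and 6, and 0.604 to 2.46 CPM in the other 8 libraries. Those same 4 libraries, all with a label of ZT 2, were the 4 lowest of 12 for 4 of the 33 genes, beside 1.33% of all genes. These were Fasn, Srebf1, Acly and Gpam. The 4 libraries were the 4 highest for 1 of the 33, Pnpla2, which is near the share of all genes, 2.23%. Acly measured 323, 308, 580, 871, 676 and 581 CPM in PBS replicates 1 to 6 and 512, 389, 1047, 626, 324 and 292 CPM in those labelled GH. Pnpla2 ran the other way, at 37.1, 31.2, 18.3, 19.0, 17.1 and 22.6 CPM and at 22.8, 16.9, 15.8, 19.3, 34.4 and 31.3 CPM. These 4 libraries were picked by Dbp, so its own place there was fixed. Of the other clock genes among the 10 measured, Nr1d1, Nr1d2, Per3 and Ciart were also highest in them. Whether sampling time plays a part in the lipid genes was not tested.

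**Figure D4:**
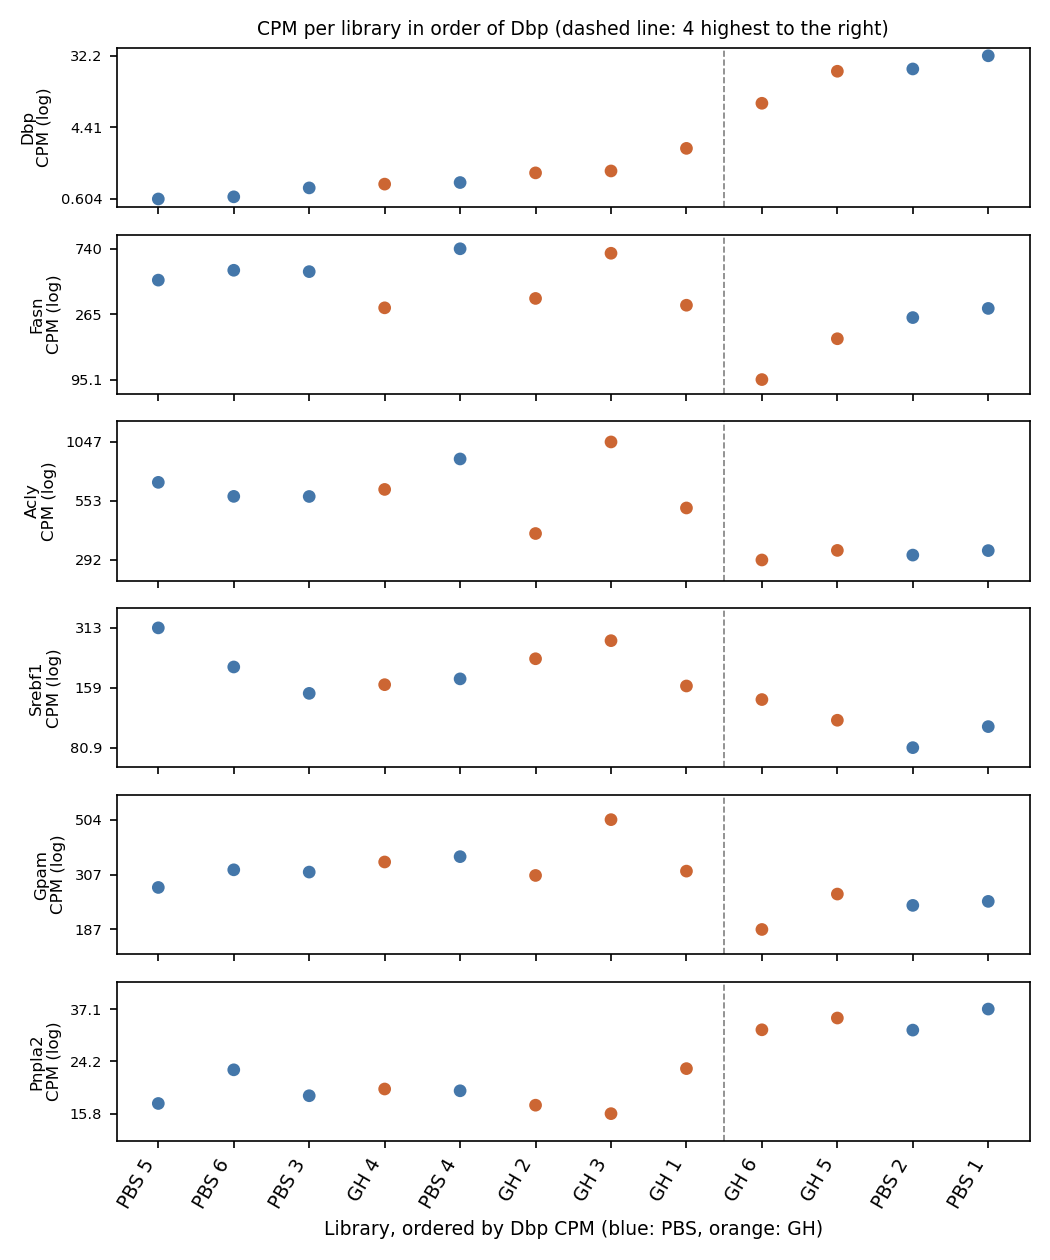
CPM on a log axis of Dbp, Fasn, Acly, Srebf1, Gpam and Pnpla2 in each library, with the libraries ordered from left to right by Dbp and coloured by label. PBS replicates 1 and 2 and GH replicates 5 and 6, at 8.61 to 32.2 CPM of Dbp, lie right of the dashed line and are the 4 lowest for Fasn, Srebf1, Acly and Gpam and the 4 highest for Pnpla2.

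With those 4 libraries left out, Elovl3 was at 0.85 (adjusted p = 0.000433) and Vldlr at -2.12 (adjusted p = 0.00988), and these 2 of 33 genes passed, where 5.75% of all genes passed. This set was chosen after seeing the data. It holds the 2 lowest libraries of each group for Elovl3, whose log2 fold change was 0.95 with all libraries. It also holds GH replicate 6, the only library labelled GH inside the PBS range for Vldlr. The smaller p-values are therefore no separate support. The medians of the classes without these 4 libraries were -0.15 for synthesis, -0.36 for elongation and desaturation, -0.03 for glycerolipid assembly and -0.01 for droplet, lipase and export genes.

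The upstream 250 bases of Fasn, Acly and Pnpla2 are shown because the first 2 share the order of libraries that Pnpla2 reverses. They come from RefSeq on GRCm38.p6 and end at the base before the annotated start. Capitals mark every match on either strand to the CCAAT box (CCAAT) and the GC box (GGGCGG), the motifs found in these windows among 6 searched. The windows are chr11:120824548-120824797 on the minus strand for Fasn, chr11:100528001-100528250 on the minus strand for Acly and chr7:141454938-141455187 on the plus strand for Pnpla2.
Fasn: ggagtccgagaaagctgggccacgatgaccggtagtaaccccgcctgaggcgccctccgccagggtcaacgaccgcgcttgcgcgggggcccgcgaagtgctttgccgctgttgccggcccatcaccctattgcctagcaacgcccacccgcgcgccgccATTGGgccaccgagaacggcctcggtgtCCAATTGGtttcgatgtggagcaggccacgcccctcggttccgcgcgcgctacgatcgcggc
Acly: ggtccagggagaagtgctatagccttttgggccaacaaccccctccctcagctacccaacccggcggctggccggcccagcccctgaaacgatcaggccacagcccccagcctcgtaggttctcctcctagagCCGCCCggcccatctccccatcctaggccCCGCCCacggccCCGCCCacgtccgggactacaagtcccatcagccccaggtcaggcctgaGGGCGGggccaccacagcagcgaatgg
Pnpla2: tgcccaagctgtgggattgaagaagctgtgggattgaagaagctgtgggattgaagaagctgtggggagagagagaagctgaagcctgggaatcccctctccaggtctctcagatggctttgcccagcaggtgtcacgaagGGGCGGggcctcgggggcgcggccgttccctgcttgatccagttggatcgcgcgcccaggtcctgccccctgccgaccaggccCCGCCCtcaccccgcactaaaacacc
Fasn holds CCAAT matches in this window, a pair of which overlap, and no GC box, while Acly holds GC boxes on both strands and Pnpla2 holds them without a CCAAT match.

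Of the 34 genes, 28 had upstream windows in the RefSeq table, 39 windows in all. The CCAAT box was in 18 of the 39 windows beside 33.8% of the 32851 windows of all genes, and the GC box in 21 of 39 beside 32.7%. The E-box (CACGTG) was found for Elovl5, Lpin2, Mlxipl and Slc25a1, 4 of 39 windows beside 6.02%, and the core of the sterol regulatory element (TCACNCCAC) for Mlxipl alone, beside 1.05%. The TATA box (TATAAA) was found for Acacb and Cideb, beside 12.4%. The palindrome bound by STAT factors (TTCNNNGAA) was in 0 of 39 windows, beside 7.02% of all windows, which says only that these letters are not in these stretches. All 6 motifs were searched on both strands, and a match describes letters, not binding. Only the letters given were searched, so a window without a match may still hold another form of any of these sites.

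Ratios between related genes within a library do not depend on how libraries are scaled, and 10 such ratios were compared. The log2 ratio of Elovl3 to Elovl6 was 1.43, 2.62, 2.30, 1.22, 3.64 and 2.06 in PBS replicates 1 to 6 and 4.24, 4.04, 2.76, 3.74, 4.63 and 4.87 in those labelled GH. All 6 libraries labelled GH lay above the PBS mean, and GH replicate 3 lay below the highest PBS value. The mean ratio was 2.21 ± 0.88 in PBS and 4.05 ± 0.75 in GH libraries, higher by 1.83 (two-sided exact permutation p = 0.00433, adjusted over the 10 ratios 0.0433). The adjusted p stayed under 0.05 in 2 of the 12 tests with 1 library left out, those without GH replicate 3 and without PBS replicate 5.

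The other 9 ratios did not pass after adjustment. Elovl2 to Elovl5 was higher by 0.66 on the log2 scale in libraries labelled GH (exact permutation p = 0.0346, adjusted 0.115), Dgat1 to Dgat2 by 0.28 (0.0216, adjusted 0.108) and Fads1 to Fads2 by 0.18 (0.0498, adjusted 0.124). For the remaining 6 ratios the adjusted p was at least 0.517.

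**Figure D5:**
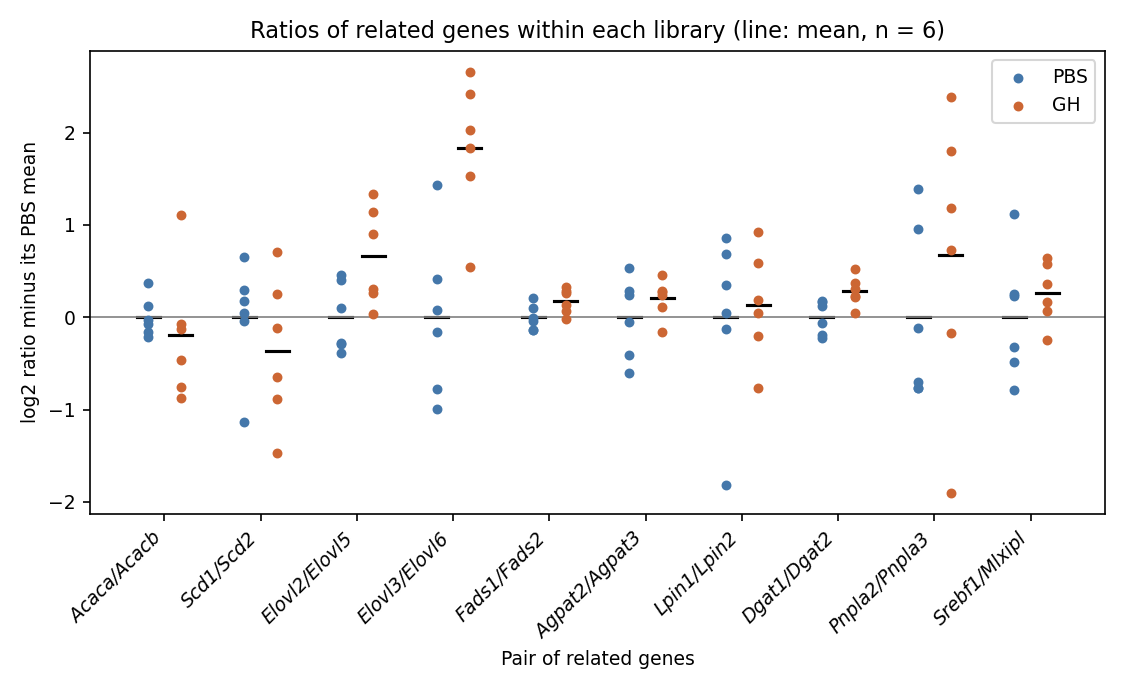
Within-library log2 ratios of 10 pairs of related genes, relative to the PBS mean of each ratio, with 1 point per library and a line for the mean of each group of 6. The Elovl3 to Elovl6 ratio has the largest difference of the 10, 1.83, and the groups overlap in part.

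Other genes of lipid metabolism, not in the list of 34, passed at about the rate of all genes. Of 65 found, 57 were tested and 3 passed the adjusted threshold (1 higher and 2 lower), beside 4.79% of all genes. At an unadjusted p under 0.05 there were 12, or 21.1% beside 19.0% of all genes, and the median log2 fold change was -0.02. Tm6sf2, a gene of lipoprotein lipidation, fell from 29.2 ± 6.50 to 16.3 ± 2.05 CPM (-0.84 ± 0.13, adjusted p = 0.00182), and Acsl1, the main liver acyl-CoA synthetase, fell from 1003 ± 103 to 722 ± 96.5 CPM (-0.47 ± 0.10, adjusted p = 0.00982). In both, the groups did not overlap and the call held with each library left out in turn. Acsl6, an acyl-CoA synthetase gene that is scarce in these livers, rose from 0.411 ± 0.185 to 1.17 ± 0.518 CPM (1.49 ± 0.38, adjusted p = 0.0305), a call that held in 4 of 12 such fits. The next smallest were Insig2, a retention factor of SREBP, from 364 ± 110 to 571 ± 21.7 CPM without overlap (0.65, adjusted p = 0.0523), Acsl4 (-0.40, adjusted p = 0.0523) and Mid1ip1, a partner of Thrsp (-0.39, adjusted p = 0.102).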

How the data were processed

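Per the labels' protocols, total RNA depleted of ribosomal RNA was made into stranded libraries and sequenced from both ends. The submitters' processing notes name STAR 2.4.0i and mm10. What counted the reads, with which annotation and strand setting, was not stated, so reads of genes that overlap on the same strand, and possibly on opposite strands, cannot be separated. Opposite-strand overlaps of at least 50 exonic bases also touch Srebf1, Acss2, Mlxipl, Elovl1, Agpat2 and Mogat1. The authors deposited raw exonic counts per gene, without normalization, for 12 libraries, and groups were taken from the labels. Symbols were matched to GENCODE M21, which gave coordinates and exonic lengths on GRCm38.

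The fit used edgeR 4.0.16 in R 4.3.3, after filterByExpr (minimum count 10, 14235 genes left) and TMM scaling. A robust quasi-likelihood F test with the group as the only term was two-sided, with Benjamini-Hochberg adjustment over all genes and a threshold of 0.05. SE came from the log2 fold change and its F statistic. CPM are TMM-scaled. Log2 ratios of related genes used a prior count of 2 and an exact permutation test over 924 assignments. The edgeR test was checked on simulated counts with known changes. It recovered 52% of 100 genes changed by a log2 fold change of 0.5 and 98% of 100 changed by 1. The simulation gave all genes the same biological coefficient of variation, 0.168. The genes described here spread more than the typical gene (median within-group SD 0.45 beside 0.21), so the recovery for them was not measured. Alternatives were RLE scaling, library totals alone, DESeq2 1.42.0, limma-voom (limma 3.58.1), no filter, a replicate block, other prior counts and each library left out. Leaving out the 4 libraries with the highest Dbp, and the 2 with the lowest Lpin1, was chosen after seeing the data.

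Members and lists were chosen with earlier results of these data known. Values in every library are given for members that passed under any setting, for the 6 with the smallest p, and for Srebf1, Fasn, Scd1 and Dgat2. Values for Acly, Pnpla2, Thrsp and Lpin1 were added after seeing them.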

Additional observations from a re-analysis of the deposited data

Results flagged for a closer look

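In 7 of 78 groups of 6 libraries, 1 library stood far from the others of its group by Dixon's test on CPM. For independent groups of normally spread values, chance would give about 1 in 20, or 3.9 groups. The groups here share the same libraries, and CPM need not be normally spread, so 7 beside 3.9 is no test against chance. PBS replicate 4 was high for Thrsp (448 CPM, others 40.4 to 173). PBS replicate 5 was high for Scd2 (16.3 CPM, others 7.56 to 10.3) and for Elovl1 (31.5 CPM, others 21.3 to 24.1). GH replicate 3 was high for Pnpla3 (3.02 CPM, others 0.220 to 1.05). GH replicate 6 was low for Mttp (262 CPM, others 366 to 398) and Lipc (94.0 CPM, others 139 to 148), and high for Vldlr (2.11 CPM, others 0.456 to 0.710).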

How the results depend on the processing

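Of 660 alternative log2 fold changes of the 33 genes, 611 kept direction and side of the threshold, 13 newly passed and 36 changed sign. None of the 33 passed as reported, so no call could be lost, and 22 genes never changed sign. The number of the 33 that passed was 0 as reported, and under limma-voom, RLE scaling and no filter. It was 1 with library totals alone (Fads2, -0.45, adjusted p = 0.0273), which shifted the median of all genes by -0.06, and 2 in DESeq2 (Fads2 and Vldlr). It was 2 without the 4 libraries of highest Dbp (Elovl3 and Vldlr), 2 without PBS replicate 5 and GH replicate 6 (Elovl1 and Vldlr), and 0 to 2 with 1 library left out: Fads2 without PBS replicate 3 (0.0422), Vldlr without PBS replicate 4 (0.0334) or GH replicate 6, and Elovl5 and Fads2 (0.0451) without GH replicate 3. Over all genes the count was 682 as reported, 1058 in DESeq2 and 434 to 854 with 1 library left out. Other lipid genes gave 3 as reported, 5 with totals alone (869 of all genes passed), 5 in DESeq2 (7.34% of all genes passed), 5 without the 4 libraries (5.75% of all genes), 6 without the 2 (7.18% of all genes), and 2 to 5 with 1 left out. The class medians with 1 left out ran from -0.43 to -0.08, -0.33 to -0.17, -0.09 to -0.02 and -0.16 to -0.04 in the order given above.

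Replicate numbers did not pair the samples (same-number correlations -0.17 to 0.16, and 2 libraries matched best with their own number). With the replicate block, 391 of all genes and 1 of the 33 passed (Vldlr, -1.59, adjusted p = 0.0154). For the ratios, the block used a test that flips the signs of the differences between same-number libraries, and 0 passed. That test has too few sign patterns for a lone ratio to pass after adjustment, so its 0 does not measure stability. The number of ratios past the threshold, 1 as reported, was 0 without the 4 or the 2 libraries and 0 to 2 with 1 left out. Without the 4 or the 2 libraries, the permutation test has too few assignments for a lone ratio to pass after adjustment. Those counts of 0 therefore do not tell whether the Elovl3 to Elovl6 difference depends on these libraries.

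The genes that changed sign had log2 fold changes near 0 with all libraries, apart from Thrsp at -0.58, and single libraries moved some of them widely. Without the 4 libraries, Acacb was 0.18, Srebf1 -0.036, Slc25a1 0.039, Agpat2 -0.0046, Dgat1 -0.026 and Lipc 0.019. Without the 2, Acacb was 0.13, Acly 0.12, Slc25a1 0.039 and the Lpin1 to Lpin2 ratio -0.052. With totals alone Mttp was -0.051. With 1 library left out the ranges were -0.32 to 0.21 for Acacb, -0.10 to 0.32 for Srebf1, -1.05 to 0.032 for Thrsp, -0.38 to 0.11 for Acly, -0.088 to 0.044 for Slc25a1, -0.042 to 0.25 for Gpam, -0.19 to 0.11 for Pnpla2, -0.068 to 0.087 for Mttp and -0.23 to 0.31 for the Lpin1 to Lpin2 ratio. The cause was not tested. Scarce genes such as Vldlr, Pnpla3 and Mogat1 are limited by depth.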

Other observations

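Genes that respond to feeding and insulin were measured beside the lipid genes. None of the 8 tested passed the adjusted threshold of edgeR, 3 had an unadjusted p under 0.05 (19.0% of all genes did), and all 8 had a log2 fold change below 0 (49.9% of all genes did), with a median of -0.30. Igfbp1, which insulin represses in liver, was at 227 ± 104 CPM in PBS and 98.7 ± 45.5 CPM in libraries labelled GH (-1.20 ± 0.39, adjusted p = 0.122). Irs2, an insulin receptor substrate, was at 34.5 ± 9.84 and 20.2 ± 7.04 CPM (-0.77 ± 0.25, adjusted p = 0.112), and Fgf21, a fasting hormone gene, at 0.911 ± 0.389 and 0.408 ± 0.218 CPM (-1.15 ± 0.40, adjusted p = 0.118).

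Among other lipid genes, G0s2, an inhibitor of the lipase encoded by Pnpla2, was highest in the 4 libraries that were also highest for Dbp, at 47.4 and 45.2 CPM in PBS replicates 1 and 2 and 64.4 and 52.7 CPM in GH replicates 5 and 6. The same held for Ppargc1b and Lipe, so for 3 of the 57 tested, beside 2.23% of all genes.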
